A study of Mus musculus with 8 samples.

Results

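Fetal livers lacking Btg2 were compared with wild-type fetal livers at embryonic day 13.5, across all genes that the arrays measured. Btg2, also written TIS21, BTG2 or PC3, is the gene that was knocked out. The comparison took 4 of the 8 arrays of the series: 2 arrays labelled as knockout fetal liver and 2 labelled as wild-type fetal liver. The series title gives C57BL/6J mice. Both fetal groups were pools of male and female fetuses, and the labels name no treatment for them. Per the labels' protocols, a pool held livers of more than 3 fetuses taken from one womb, so litter and genotype cannot be told apart. The series' design text states technical duplication, so the 2 arrays of a group were 2 measurements of 1 RNA pool. No p-value for genotype is therefore given: every difference is between 2 pools, and its standard error (SE) holds only the spread between duplicate arrays. The sources used here do not say how the gene had been disrupted, and fewer cells of a type cannot be told apart from less RNA per cell. The other 4 arrays held adult liver of males aged 10 weeks and fasted for 20 h, of the same genotypes, and are used only for values side by side. Of 20284 genes with a named probe, 14202 were compared, namely those that the scanner software marked as well above background on both duplicates of one fetal pool or the other.

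BTG2 belongs to the BTG/TOB family of antiproliferative proteins. These proteins bind the CCR4-NOT complex, the main machine that shortens the poly(A) tails of mRNAs, and BTG2 is induced by p53 and by growth stimuli. At mid-gestation the liver is the main blood-forming organ: hepatoblasts, the precursors of hepatocytes and bile duct cells, lie among maturing red cells and other blood precursors. The organ lies just below the heart, from which the muscular diaphragm separates it, and within the body wall with its skin.

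Stretches of promoter are shown for the targeted gene and for called genes of the pair of tissue lists that moved most, those of heart muscle and of epidermis. They are the 250 bases before the annotated start, from RefSeq (GRCm38.p6), 5′ to 3′ on the gene's strand, and a motif match is in capitals. Btg2 is shown at chr1:134079156-134079405, minus strand, and held none of the motifs searched. Myl7 (chr11:5898783-5899032, minus strand) held a CArG box, the site of serum response factor, at -61 from the start. Mybpc3 (chr2:91117894-91118143, plus strand) held a MEF2 site at -90. Nppb (chr4:147985650-147985899, plus strand) held a GATA site at -84 and a TATA box at -31. Krt10 (chr11:99389365-99389614, minus strand) held a TATA box at -26 and a GATA site at -126. Krt13 has 2 annotated starts, and the window shown (chr11:100120578-100120827, minus strand) held AP-1 sites at -183 and -34.
Btg2: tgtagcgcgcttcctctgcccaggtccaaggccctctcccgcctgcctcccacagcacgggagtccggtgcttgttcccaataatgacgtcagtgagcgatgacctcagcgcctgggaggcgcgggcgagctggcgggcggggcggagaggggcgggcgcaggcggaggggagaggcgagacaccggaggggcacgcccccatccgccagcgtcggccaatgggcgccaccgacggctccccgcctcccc
Myl7: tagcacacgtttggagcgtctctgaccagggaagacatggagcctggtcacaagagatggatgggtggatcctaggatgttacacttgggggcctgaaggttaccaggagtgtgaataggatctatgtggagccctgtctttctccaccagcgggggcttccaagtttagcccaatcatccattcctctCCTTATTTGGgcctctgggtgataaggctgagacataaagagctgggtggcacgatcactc
Mybpc3: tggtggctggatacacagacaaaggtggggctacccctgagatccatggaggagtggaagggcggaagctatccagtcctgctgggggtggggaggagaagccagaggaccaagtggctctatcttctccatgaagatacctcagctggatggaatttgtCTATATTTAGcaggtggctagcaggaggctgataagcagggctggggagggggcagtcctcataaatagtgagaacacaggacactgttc
Nppb: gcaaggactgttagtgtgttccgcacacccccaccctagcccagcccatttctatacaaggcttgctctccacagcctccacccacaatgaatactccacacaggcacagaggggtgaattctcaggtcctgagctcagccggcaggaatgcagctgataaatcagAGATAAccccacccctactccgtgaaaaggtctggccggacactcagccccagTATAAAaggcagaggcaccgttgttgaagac
Krt10: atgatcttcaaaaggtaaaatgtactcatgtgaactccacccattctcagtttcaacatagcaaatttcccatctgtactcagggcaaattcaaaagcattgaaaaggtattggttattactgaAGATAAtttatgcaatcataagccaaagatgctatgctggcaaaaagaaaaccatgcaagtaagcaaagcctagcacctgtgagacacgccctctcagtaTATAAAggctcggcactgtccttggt
Krt13: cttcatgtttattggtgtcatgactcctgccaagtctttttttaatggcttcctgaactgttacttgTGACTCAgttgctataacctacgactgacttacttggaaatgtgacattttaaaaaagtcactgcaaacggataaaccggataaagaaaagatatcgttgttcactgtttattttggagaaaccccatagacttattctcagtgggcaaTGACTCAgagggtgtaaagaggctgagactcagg

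Both strands were searched. The TATA box was taken as the letters TATAAA. The GATA site was taken as the letters AGATAA. The NKX2-5 site was taken as the letters TCAAGTG. The AP-1 site was taken as the letters TGANTCA, and the MEF2 site and the CArG box by their usual consensus. A MEF2 site or a CArG box can contain the letters of the TATA box, and each motif was counted on its own. Windows were found for 11 of the 12 heart genes called higher, 14 windows in all, and for 6 of the 9 epidermal genes called lower, 7 windows in all. In the heart windows, MEF2 was found in 1, CArG in 1, GATA in 2, TATA in 2, NKX2-5 in 0 and AP-1 in 0. In the epidermal windows, AP-1 was found in 2, GATA in 1, TATA in 1 and the other 3 motifs in 0. Both windows with AP-1 belonged to 1 gene, Krt13, with its 2 annotated starts. Over all 32851 windows of 27025 genes the shares were 2.92% for MEF2, 1.47% for CArG, 9.99% for GATA, 12.4% for TATA, 2.68% for NKX2-5 and 6.75% for AP-1. A match describes these letters in this window and nothing more.

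Levels are on a log2 scale relative to the 75th percentile of signal on the same array, which is 0. A gene was called higher or lower when the pools differed by at least 2-fold and neither array of one pool overlapped those of the other. Where both duplicates of a pool were too dim to stand well above background, the difference is a lower bound ("at least N-fold"), and the bound itself had to reach 2-fold. The 75th percentile of signal was 334 and 325 on the wild-type arrays and 279 and 278 on the knockout arrays. The first wild-type array stood apart in detection, with 61.1% of probes well above background against 48.7% to 49.8% on the other 3. All 8 arrays of the series lay on 1 slide, with each group in a column of its own, so column and group cannot be told apart. Duplicate arrays correlated at 0.997 across genes in either pool, and the SD of their difference was 0.22 in wild type and 0.21 in knockout.

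Btg2 RNA was measured on both wild-type arrays, at 2.63 and 2.68, and on neither knockout array, where its probe was not well above background. Knockout was at least 99.7-fold lower, the largest bound among the genes compared, and in this respect the 4 arrays matched their labels. Its relatives and the subunits of CCR4-NOT, 18 measured genes besides Btg2, all lay within 1.5-fold, as did 93.8% of all genes. The related Btg1 read 3.05 and 3.09 in wild type and 3.03 and 2.97 in knockout. Tob2 was the highest of the list at 0.25 ± 0.04, and Cnot7, a deadenylase of the complex, the lowest after Btg2 at -0.33 ± 0.09.

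Beyond Btg2 the 2 pools were close. In knockout 80 genes (0.563% of 14202) passed as higher and 161 (1.13%) as lower, and 93.8% lay within 1.5-fold. The median difference over all genes was 0.02. Of the calls, 37 were at least 4-fold and 4 at least 8-fold, the latter being Ctse, Cxcl14 and Six2 among genes measured in both pools and Btg2 by its bound. In 63 calls the other pool was not well above background, and 61 of the higher and 86 of the lower genes were well above background on all 4 arrays. In 38 calls the duplicate arrays of a pool lay more than 1 apart. Without the first knockout array 208 genes were higher, and without the first and the second wild-type array in turn 238 and 250 were lower.

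Background correction moved these counts as well. With normexp, a model-based correction, 31 genes were higher and 37 lower. It was run with an offset of 50 added to every signal before log2, which shrinks differences of dim probes. Of the genes described here, the calls of Nkx2-5, Nppb, Foxf2, Tbx18, Prss34, Hoxb5 and Tnfrsf22 among the rises were lost under it. Among the falls it ended those of the skin genes Krt1, Krt13, Krt79, Sfn, Grhl3, Trim29, Apcdd1, Wnt10a and Ly6d. It did the same for the mesenchymal genes Pax1, Twist1, Prrx1, Osr1, Ebf1, Ebf2 and Ebf3, and for the muscle and nerve genes Chrna1, Tnnt3, Mybph, Synpo2, Dbh, Stmn2, Nefl and Ncmap. Also lost were Epcam, Spp1, Crabp2, Wif1, Znrf3, Hoxb13, Hoxa6, Prl8a2, Tpbpb, Inava, Serinc2, Klk1, Klk1b3, Klk1b5 and 2610528J11Rik.

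**Figure D1:**
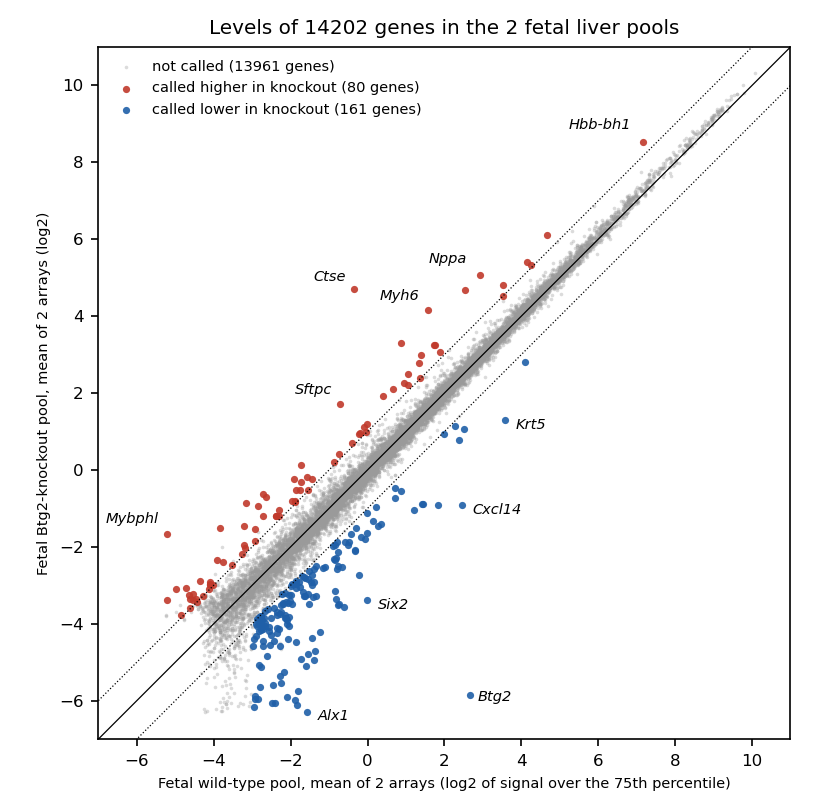
Mean level of each of the 14202 genes in the wild-type pool (x) and the Btg2-knockout pool (y), each the mean of 2 arrays, as log2 of signal over the array's 75th percentile; the solid line marks equality and the dotted lines 2-fold. Red points are the 80 genes called higher and blue points the 161 called lower in knockout, with Btg2 far below the line.

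Most of the calls with a tissue list came from tissues other than liver and blood. In 12 lists of markers of other tissues, 175 genes were measured, of which 16 were higher and 29 lower in knockout. In 19 lists of liver and blood cells, 279 genes were measured, with 5 higher and 4 lower. In 35 pathway lists, 643 genes were measured, with 4 higher and 7 lower. The 13151 genes in no list held 56 higher and 121 lower. Among all genes 0.563% were called higher and 1.13% lower, and each list count is to be read beside these shares.

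Heart muscle genes were higher in the knockout pool. Of 18 measured, 12 were called higher and 0 lower (0.563% of all genes were called higher), all 18 differences were positive, and the list's median was 1.35 against 0.02 over all genes. All 18 were measured on every fetal array. Their summed level, in units of each array's 75th percentile, was 206 and 208 in wild type and 477 and 479 in knockout, a ratio of 2.31.

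Myh6, Myl7 and Nppa led the list, and Sln, named after its values were seen, was its lowest member at 0.48. Myh6, alpha myosin heavy chain, read 1.51 and 1.62 in wild type and 4.05 and 4.27 in knockout, a difference of 2.60 ± 0.07. Myl7, the atrial regulatory light chain, read 0.86 and 0.88 against 3.31 and 3.30, a difference of 2.44 ± 0.03. Nppa, which encodes atrial natriuretic peptide, read 2.92 on both wild-type arrays and 5.07 on both knockout arrays, a difference of 2.15 ± 0.02. In each of these genes both knockout arrays stood above both wild-type arrays, which the call rule itself requires. Tbx5, a T-box factor of heart and forelimb, differed by 1.94 ± 0.19 from lower levels, -2.35 and -2.94 in wild type and -0.72 and -0.70 in knockout. Mybpc3, cardiac myosin-binding protein C, differed by 1.52 ± 0.02 and Tnni3, cardiac troponin I, by 1.51 ± 0.05. The other 6 called members were named after their values were seen: Csrp3 (1.45), Myl4 (1.45), Nkx2-5 (1.40), Tnnt2 (1.29), Myh7 (1.25) and Nppb (1.22). The ventricular light chain Myl2 (0.90 ± 0.03), Myl3 (0.99 ± 0.03) and the cardiac actin Actc1 (0.99 ± 0.03), also chosen after their values were seen, lay under 2-fold without a call.

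Mybphl, a myosin-binding protein gene of the atrium, was in no list and was at least 6.88-fold higher in knockout, at -1.65 and -1.68, while neither wild-type array was well above background. Of 9 measured lung epithelium genes 1 was higher, against 0.563% of all genes. It was Sftpc, surfactant protein C of the distal lung bud, at -0.69 and -0.73 in wild type. Both knockout arrays read 1.71, a difference of 2.42 ± 0.04. The summed level of that list was 55.7 and 57.8 in wild type and 58.2 and 57.8 in knockout, of which most came from the probe assigned to Lamp3 (5.30 and 5.37 against 5.24 and 5.23). Whether that probe reads Lamp3 was not tested, so the sum says little of lung epithelium. The list's defining genes Sftpa1, Sftpb and Scgb1a1 were too dim to be compared. Tbx4, a T-box factor of lung and hindlimb mesenchyme, read -2.68 and -2.77 in wild type and -0.64 and -0.63 in knockout (2.10 ± 0.09). Foxf2, a forkhead factor of visceral mesenchyme, was at least 2.56-fold higher. Tbx18, of epicardium and mesothelium, was the 1 called gene of 13 in the mesothelium list, at 1.16 ± 0.29, against 0.563% of all genes called higher. The Tbx18 call was lost without either wild-type array. What part cells of heart or lung had in the results on other genes was not tested.

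**Figure D2:**
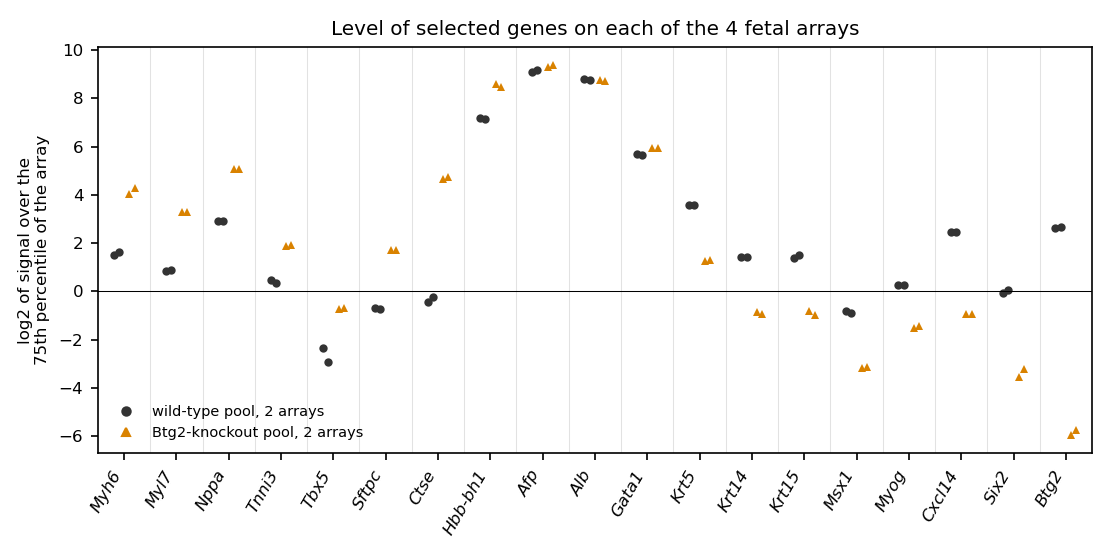
Level of 19 genes on each of the 4 fetal arrays, as log2 of signal over the array's 75th percentile, with circles for the wild-type pool and triangles for the knockout pool. Duplicates nearly coincide; heart genes such as Nppa and Myh6 lie higher in knockout, keratins such as Krt5 lie lower, and Afp, Alb and Gata1 lie close together.

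Epidermal genes were lower in the knockout pool. Of 17 measured, 9 were called lower and 0 higher (1.13% of all genes were called lower), and the list's median was -1.08. The median was also -1.08 over the 15 members measured on every fetal array. The summed level was 36.4 and 36.5 in wild type and 16.2 and 16.1 in knockout. Krt5, the type II keratin of basal epidermis, read 3.57 on both wild-type arrays and 1.27 and 1.30 in knockout, a difference of -2.28 ± 0.03. Its partner Krt14 read 1.41 on both wild-type arrays and -0.84 and -0.94 in knockout (-2.30 ± 0.05). Krt15, a further basal keratin, read 1.406 and 1.497 against -0.82 and -0.96 (-2.34 ± 0.06). In all 3 basal keratins both knockout arrays lay below both wild-type arrays, which the call rule itself requires. Another Krt5 probe differed by -2.89. Krt1, a keratin of differentiating layers, was at least 4.52-fold lower and was not well above background in knockout. Krt13 (-1.68 ± 0.14) and Krt17 (-1.60 ± 0.09) were lower as well, and Krt10, Sfn and Grhl3 made up the 9.

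Trp63, which encodes p63, the master factor of stratified epithelium, had no call, with a difference of 0.18 ± 0.04. Perp, a p63 target of desmosomes, differed by -0.64 ± 0.02, under 2-fold; both were chosen after their values were seen. Sfn lost its call without the first wild-type or the second knockout array, and Grhl3 without the first knockout array. Desmosomal Pkp1 (-2.52 ± 0.09) and Krtdap, a gene of differentiating keratinocytes (-2.74 ± 0.14), were among the 15 largest falls of genes measured on all 4 arrays. Trim29, of stratified epithelia, was at least 6.53-fold lower and Gjb6, connexin 30, at least 5.41-fold lower. Apcdd1, an inhibitor of Wnt signals in skin, differed by -1.94 ± 0.12, and the Wnt ligands Wnt6 (-1.86 ± 0.10) and Wnt10a (-1.80 ± 0.16) lay close to it. With normexp 5 of the 17 epidermal genes were called in place of 9, and Krt5, Krt14 and Krt15 were still called.

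Mesenchyme of the body wall and limb gave calls both ways. Of 29 measured genes, 9 were lower and 4 higher, against 1.13% and 0.563% of all genes. The median was -0.26 (-0.19 over the 19 members measured on every fetal array). The summed level was 93.9 and 99.8 in wild type and 106.7 and 107.7 in knockout, opposite in direction to the median. Most of the sum came from the probe assigned to Eya1 (6.39 and 6.50 against 6.64 and 6.65), and whether that probe reads Eya1 was not tested. Msx1, a homeobox gene of limb and facial mesenchyme, read -0.83 and -0.88 in wild type and -3.18 and -3.11 in knockout (-2.29 ± 0.10). Twist2, a helix-loop-helix factor of dermis, read 0.69 and 0.76 against -0.69 and -0.78 (-1.46 ± 0.06), and Twist1 differed by -1.49 ± 0.13. Alx1, Pax3 and Pax1, factors of craniofacial mesenchyme, of dermomyotome and neural crest, and of the somite-derived skeleton, were detected in wild type only and were at least 5.33-fold, 5.20-fold and 3.26-fold lower. Prrx1 (-1.30 ± 0.14) and Osr1 (-1.06 ± 0.08) were also lower. The 4 higher members were Tbx5, Tbx4, Tbx18 and Foxf2, described above. Under normexp 4 were lower and 2 higher.

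Skeletal muscle genes differed member by member. Of 17 measured, 4 were lower and 0 higher, against 1.13% and 0.563% of all genes. The median was -0.70 (-0.22 over the 14 members measured on every fetal array). Myog, the myogenin gene that drives muscle differentiation, read 0.26 on both wild-type arrays and -1.497 and -1.442 in knockout (-1.73 ± 0.06). The fast-fibre troponins Tnnc2 (-1.14 ± 0.03) and Tnnt3 (-1.23 ± 0.09) and the acetylcholine receptor subunit Chrna1 (-1.29 ± 0.17) were the others. Myod1 was detected in wild type only, near the limit, and its bound was 1.18-fold. The summed level of the list was 41.2 and 37.4 in wild type and 42.2 and 39.4 in knockout, a ratio of 1.04, unlike the negative median. Of the 17 differences 6 were positive, the highest that of Ckm (0.76), named after its values were seen. What part heart muscle had in the sum was not tested. Smooth muscle genes had 1 call of 10, Synpo2 (-1.26 ± 0.16), a median of 0.21, and Acta2 at 0.45 ± 0.02.

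Of 21 measured genes of neurons and neural crest, 4 were lower and 0 higher, against 1.13% and 0.563% of all genes. The median was -0.39 (-0.33 over 15 members measured on every fetal array). Stmn2, a microtubule regulator of growing axons, read -0.77 and -0.92 in wild type and -1.94 and -1.99 in knockout (-1.12 ± 0.09). Dbh, which makes noradrenaline, was at least 3.07-fold lower. Nefl, neurofilament light chain, differed by -1.02 ± 0.21 and lost its call under median scaling, in the deposited value table, and without the second wild-type or the first knockout array. Under normexp 0 of the 21 were called. The summed level was 13.2 and 12.6 in wild type and 11.2 and 11.4 in knockout.

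Single genes of other organs were lower as well. Six2, a factor of kidney progenitors and facial mesenchyme, read -0.08 and 0.06 in wild type and -3.56 and -3.22 in knockout (-3.38 ± 0.14). It was 1 of 2 lower genes among 13 of the kidney, adrenal and gonad list, with Osr1, and Pax2 and Pax8 were too dim to be compared. Among all genes 0.563% were called higher and 1.13% lower, and the counts of each list here are to be read beside these shares. Cxcl14, a chemokine of skin and other epithelia, read 2.47 and 2.46 against -0.92 on both knockout arrays (-3.38 ± 0.04). Cym, which encodes the milk-clotting protease chymosin, read 1.84 and 1.85 against -0.97 and -0.87 (-2.76 ± 0.05), and another Cym probe differed by -1.92. Penk, proenkephalin, read 1.18 and 1.21 against -1.04 and -1.03 (-2.23 ± 0.04). In all 4 of these genes both knockout arrays lay below both wild-type arrays, which the call rule itself requires. Tff1, a stomach trefoil factor, was at least 5.98-fold lower and was the 1 call of 11 in the stomach and pancreas list. The prolactin-family gene Prl8a2 differed by -1.98 ± 0.14. The trophoblast gene Tpbpb, in no list and named after its values were seen, was at least 3.26-fold lower. In the list of placenta and yolk sac 0 of 12 genes were called. Of 10 intestinal and 12 cartilage and bone genes 0 were called. What part the other tissues had in the results on liver and blood genes was not tested.

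**Figure D3:**
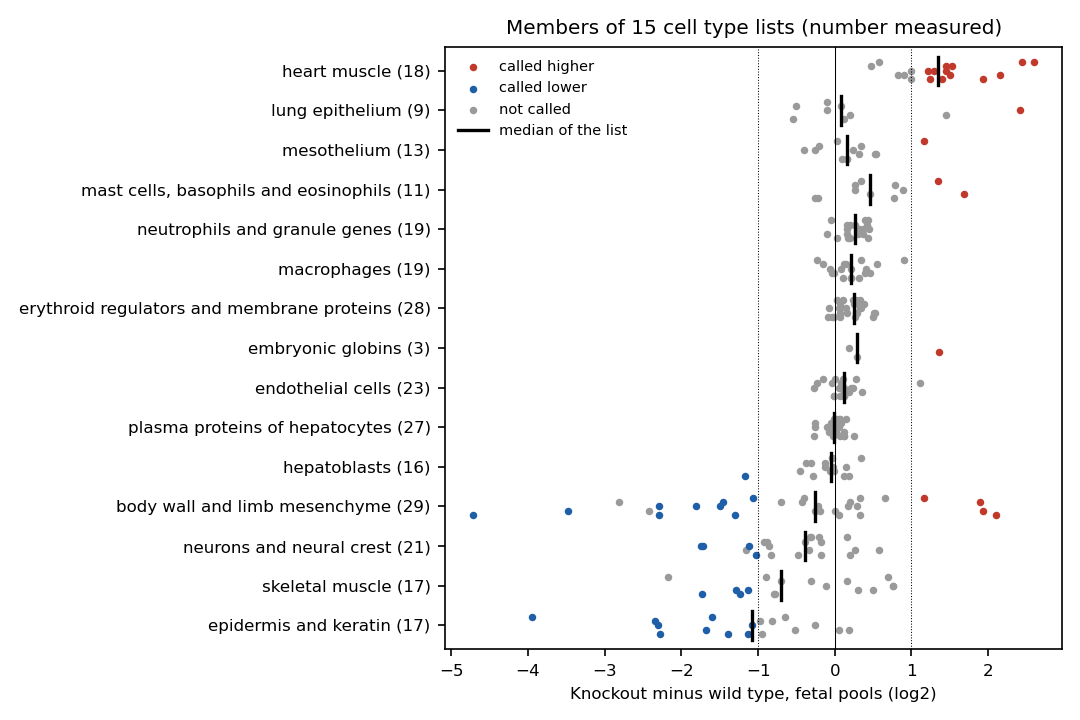
Knockout minus wild type (log2) of each measured member of 15 cell type lists, with the number measured in brackets, a bar at the list's median and dotted lines at 2-fold. Heart muscle members all lie above 0 with a median of 1.35 and epidermal members have a median of -1.08, while hepatoblast and plasma protein genes lie around 0; points of genes not detected in 1 pool are measured differences, not bounds.

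Hepatoblast genes had a median of -0.05, and 15 of 16 measured lay within 1.5-fold. Of the 16, 1 was called, lower, against 1.13% of all genes called lower. Afp, alpha-fetoprotein, read 9.11 and 9.20 in wild type and 9.32 and 9.37 in knockout (0.19 ± 0.05). Alb, albumin, read 8.83 and 8.78 against 8.76 and 8.71 (-0.07 ± 0.04). The nuclear receptor Hnf4a, which governs the hepatocyte programme, differed by -0.02 ± 0.02 and Dlk1, a surface marker of hepatoblasts, by -0.03 ± 0.05. The 1 call was Epcam, an adhesion protein of hepatoblasts and of many other epithelia (-1.17 ± 0.15). The labelled tissue was thus borne out in both pools by the high levels of these genes.

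All 27 measured plasma protein genes lay within 1.5-fold, against 93.8% of all genes, with 0 calls. Apoa1, of high-density lipoprotein, differed by -0.26 ± 0.02. Of 13 genes of mature hepatocytes 1 was called, higher, and the median was 0.07. Pck1, of gluconeogenesis, was measured in wild type only, near the limit, with a bound of 1.28-fold. Of 8 bile duct genes 3 were lower, against 1.13% of all genes, among them Spp1 (-1.21 ± 0.19) and Epcam. The cholangiocyte keratins Krt19 (0.02 ± 0.03) and Krt7 (-0.02 ± 0.06) lay level. Spp1 and Epcam are also made in other epithelia, and under normexp 0 of 8 were called. Of 23 endothelial and 22 stellate cell and fibroblast genes 0 were called, near the shares over all genes (0.563% higher and 1.13% lower).

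Among blood genes, the embryonic globin Hbb-bh1 stood out. It read 7.18 and 7.16 in wild type and 8.58 and 8.48 in knockout, a difference of 1.36 ± 0.04. The other embryonic globins Hbb-y (0.19 ± 0.05) and Hba-x (0.29 ± 0.03) and the 5 measured adult globins, from 0.02 to 0.24, were not called. Primitive red cells, made in the yolk sac, carry embryonic globins and circulate through the liver at this stage. Hba-a1 and Hba-a2, and Hbb-bt and Hbb-bs, are near-identical copies whose probes may share transcripts.

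Genes of red cell formation leaned slightly above wild type with no call. Of 28 erythroid regulators and membrane protein genes, 24 had positive differences and 0 were called, with a median of 0.24 against 0.02 over all genes. Gata1, the master erythroid factor, differed by 0.26 and Klf1 by 0.07. Of 14 haem synthesis genes 0 were called and the median was 0.18; Alas2, the first enzyme of haem synthesis in red cells, differed by 0.21. The median of 19 neutrophil genes was 0.26 and that of 19 macrophage genes 0.21, with 0 calls in either. Having no call in these lists is near the shares over all genes (0.563% higher and 1.13% lower). With quantile normalization the medians of the erythroid, haem, neutrophil and macrophage lists were 0.16, 0.06, 0.25 and 0.13.

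Mast cell, basophil and eosinophil genes had 2 calls of 11, both higher, against 0.563% of all genes, and a median of 0.46. Mcpt8, a protease that marks basophils, read -1.90 and -1.91 in wild type and -0.23 and -0.22 in knockout (1.68 ± 0.07). Prss34, a protease of basophils and mast cells, read -1.84 and -1.87 against -0.54 and -0.48 (1.34 ± 0.07). The eosinophil granule genes Prg2 (0.89 ± 0.03) and Prg3 (0.79 ± 0.06), named after their values were seen, lay under 2-fold. Kit (-0.26 ± 0.04) and Cpa3 (-0.22 ± 0.05), shared with mast cells and progenitors, lay below wild type without a call. The summed level of the list was 12.9 and 13.2 in wild type and 17.9 and 17.4 in knockout, and Fcer1a, Ms4a2, Mcpt4 and Mcpt1 were too dim to be compared. Their part in the result was not tested.

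Of 10 B lymphoid genes 1 was lower, against 1.13% of all genes: Ebf1 (-1.47 ± 0.24), well above background on 1 of the 2 knockout arrays. Ebf1 is also made in mesenchyme and neurons, and its relatives Ebf2 and Ebf3 were lower as well, named here after their values were seen (Ebf3 at -1.39 ± 0.12; Ebf2 just past 2-fold, with its call lost under other scalings). Cd79b, a part of the B cell receptor, differed by 0.21, without a call. Of 19 stem and progenitor genes, 16 megakaryocyte genes, 10 T and NK genes and 14 MHC class II and dendritic genes, 0 were called. That is near the shares over all genes (0.563% higher and 1.13% lower).

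Cell cycle lists, which cover processes that BTG2 is known to restrain, gave no call. That is near the share over all genes, of which 0.563% were called higher, 1.13% lower, and 93.8% lay within 1.5-fold. Of 31 genes of G1/S control and DNA replication 0 were called, all lay within 1.5-fold and the median was 0.05. Ccnd1, cyclin D1, differed by -0.23 and Ccnd2, cyclin D2, by -0.43. Of 23 mitotic genes 0 were called, all within 1.5-fold, with a median of 0.12. Cdk1 and Ccnb1 each differed by 0.10, and the 3 tested probes of Ccnb1 ranged from -0.23 to 0.10. Among 18 p53 genes, Trp53 differed by -0.13 and Mdm2 by 0.04. The 1 called p53 target was Phlda3, an inhibitor of AKT, at 2.56 and 2.50 in wild type and 4.69 and 4.68 in knockout (2.16 ± 0.03), a gene that lies near Btg2 on its chromosome.

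Metabolic and stress lists were also without calls, near the shares over all genes (0.563% higher and 1.13% lower). This held for 26 genes of fatty acid oxidation, 25 of cholesterol synthesis, 19 of fatty acid synthesis, 21 of glycolysis, 16 of gluconeogenesis, 26 of oxidative phosphorylation, 18 heat shock chaperones and 23 of the unfolded protein response and the integrated stress response. The 24 ribosomal protein genes were all slightly positive, with a median of 0.15 that became 0.00 with quantile normalization. Of 8 sex-linked genes 0 were called; Xist, of the inactive X, differed by -0.32 ± 0.08 and the Y-linked Eif2s3y by -0.23 ± 0.03 and Ddx3y by 0.11 ± 0.03.

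The remaining calls among pathway genes were few. In iron handling, 2 of 20 genes were higher, against 0.563% of all genes. Hamp, which encodes hepcidin, the liver hormone that blocks iron export, read -2.82 and -2.88 in wild type and -0.84 and -1.04 in knockout (1.91 ± 0.11). Steap3, a ferrireductase of red cell precursors, read 1.38 and 1.40 against 2.97 and 3.02 (1.61 ± 0.03), but a second probe of the gene differed by -1.30, and the call was lost when probes were averaged. The iron exporter and importer genes Slc40a1 and Tfrc each differed by 0.02. Hjv, named after its values were seen, was the lowest of the list at -0.99, under 2-fold and without a call. In the Wnt list 3 of 18 were lower, against 1.13% of all genes. They were the ligand Wnt5a (-1.49 ± 0.09), the inhibitor Wif1 (-1.18 ± 0.18) and the receptor ligase Znrf3 (-1.12 ± 0.37). Wif1 lost its call without the first knockout array and Znrf3 without the second wild-type array, and under normexp 1 of the 18 was called. The cytosolic retinoic acid binders Crabp1, at 0.41 and 0.29 in wild type and -1.39 and -1.43 in knockout (-1.77 ± 0.07), and Crabp2 (-1.05 ± 0.04) were the 2 lower genes of 15 in the retinoid list. Of 22 Hox genes in the list, Hoxb5 was higher (1.06 ± 0.08) and Hoxb13, of the tail region, at least 2.85-fold lower. Hoxa6, outside the list and named after its values were seen, was detected in wild type only and was at least 4.36-fold lower.

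Ctse was the highest call of all. This gene encodes cathepsin E, an aspartic protease of the endosome, and read -0.44 and -0.23 in wild type and 4.68 and 4.74 in knockout. The difference was 5.05 ± 0.07, or 33.1-fold. Cst9, a cystatin (2.29 ± 0.12), and Chil1, a chitinase-like secreted protein (1.87 ± 0.07), were other rises outside the lists. 2210417A02Rik read -3.02 and -3.40 in wild type but -2.79 and -0.12 in knockout, so its difference of 1.75 ± 0.76 rested on the second knockout array, without which the call was lost.

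The genes near Btg2 on chromosome 1 included Ctse, Chil1, Phlda3 and Myog of those described above. Of the 30 nearest tested genes, 15 on each side, 1 was higher and 2 lower, or 10% with both directions together. Among all genes 0.563% were higher and 1.13% lower. On chromosome 1 without Btg2, 3.03% were called in either direction. Of the 120 nearest, 60 on each side, 9 were called, or 7.5%, and of the other 671 tested genes of the chromosome 15, or 2.24%. These 15 include Ren2, which the annotation placed at -455 from Btg2, while its near-identical copy Ren1 stood at -9. Whether that place of Ren2 holds was not tested. Chil1 is the next tested gene after Btg2. Mybph and Myog, at 2 and 4 places after it, are genes of skeletal muscle. Ctse and Pm20d1 lie 31 and 29 tested genes before Btg2, and Phlda3, Tnnt2, Pkp1 and Inava at 24, 27, 28 and 32 places after it. Tnnt2 is a heart gene and Pkp1 a desmosomal one, so 4 of the 9 are genes of the tissues described above; Mybph, Pm20d1 and Inava are named after their values were seen. The tested genes next to Btg2 on its other side, Fmod and Optc, had no call: Fmod differed by 0.01, and Optc was too dim in knockout, with a bound of 1.21-fold.

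**Figure D4:**
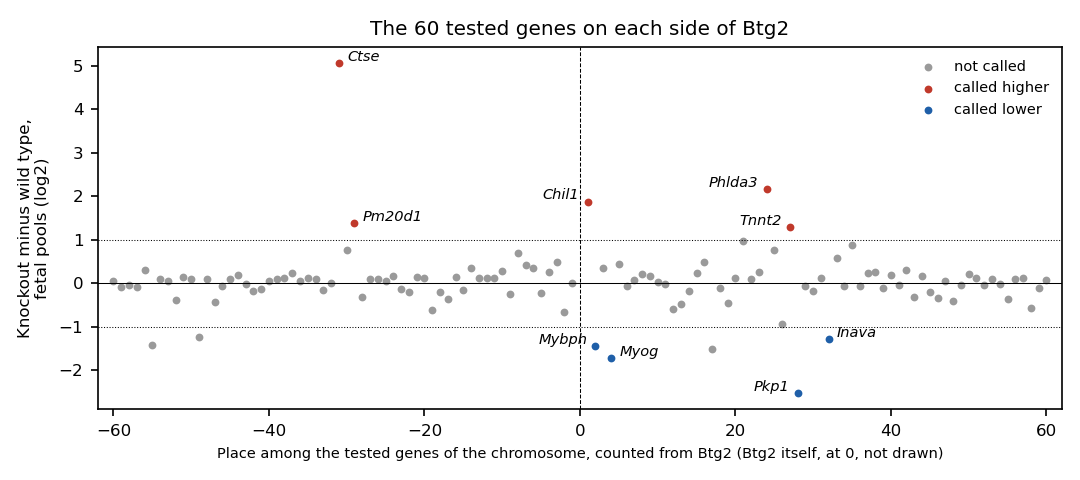
Knockout minus wild type (log2) of the 60 tested genes on each side of Btg2, in the order of the annotation, with dotted lines at 2-fold. The 9 called genes are named, and Ctse, at 5.05, lies farthest from 0.

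The adult samples, compared by the same rule, gave 490 genes higher (4.15%) and 272 lower (2.31%) of 11800. Of 11420 genes tested at both ages, 61 were called in the fetal pools and 678 in the adult samples. Called in both were 19, or 31.1% of those fetal calls and 2.80% of the adult ones. The 2 comparisons share no array, and across the genes tested in both their differences correlated at -0.036, genes not being independent replicates.

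Higher in both were Ctse (at least 32.4-fold in adult), Mgp, which encodes matrix Gla protein, an inhibitor of calcification (1.453 fetal and 1.499 adult), and Pm20d1, a secreted enzyme that joins fatty acids to amino acids (1.39 and 1.24). Lower in both were Btg2 (at least 7.62-fold in adult), Krt79 (-1.450 and -1.004), Ly6d (-1.15 and -2.29), Ncmap (-1.44 and -1.31), Serinc2 (-1.09 and -1.58) and 2610528J11Rik (-1.11 and -1.34). The fetal levels of 2610528J11Rik were -1.05 and -2.69 in wild type and -2.86 and -3.09 in knockout, and its fetal call was lost without the first wild-type array and without the second knockout array. Opposite calls were made for 3 genes that were higher in fetal and lower in adult knockout and for 7 the other way. Apart from Btg2, Ctse, Spp1 and 2210417A02Rik, these 19 genes were named after their values were seen. Of the heart list 2 genes were tested in adult liver, so most of the fetal calls there have no adult counterpart.

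**Figure D5:**
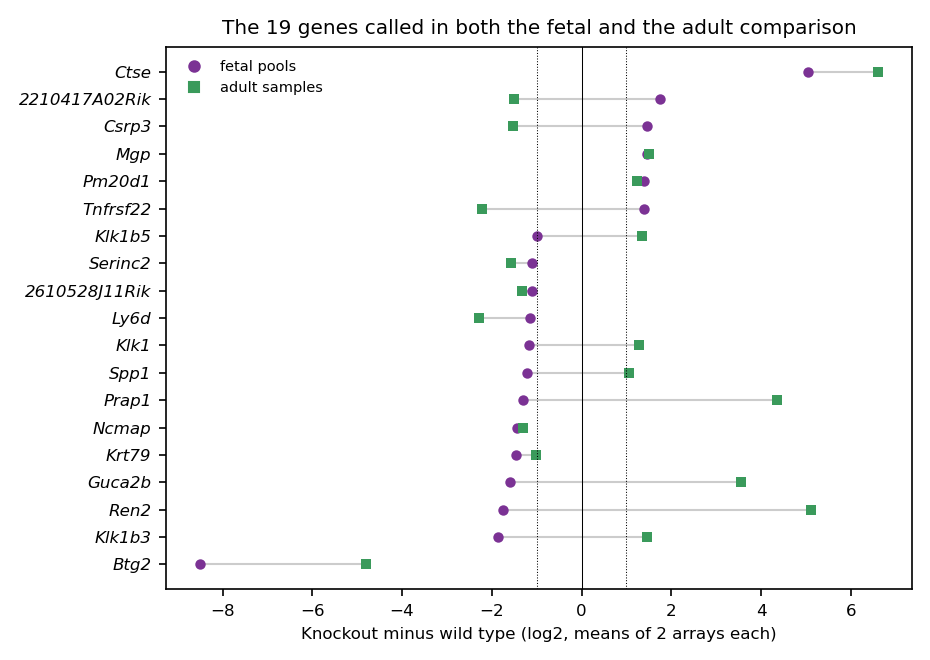
Knockout minus wild type (log2, means of 2 arrays each) of the 19 genes called in both comparisons, with circles for the fetal pools, squares for the adult samples and dotted lines at 2-fold. Of these, 3 lie to the right and 6 to the left in both, and 10 lie on opposite sides; for genes not detected in 1 group the point is the measured difference, not the bound.

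Probes without a gene name in the table used here were compared by the same rule. Of 9387 such probes, 85 were higher and 55 lower in knockout.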

How the data were processed

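Total RNA came from a Trizol extraction, and Cy3 target was made from 200 ng (Low Input Quick Amp kit), as the labels' protocols state. The deposited scanner files, 1 for each 1-colour array, hold processed signals that are background-corrected intensities on a linear scale, made with Feature Extraction 10.7.3.1, per the file headers. The deposited value table holds linear intensity too, with a median of 18.1 in each column; the sources used here do not name its normalization, and it was used as an alternative setting.

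Values were log2 of the processed signal minus the array's 75th percentile over non-control spots. Spots flagged as outliers, 92 to 142 on each fetal array, were left out, 0 were saturated, and replicate spots of a probe were averaged. Of 55681 probes, 26762 were named by RefSeq accession through the table of assembly GRCm38.p6, which also gave the order of genes, and 28919 were unnamed. A gene was its tested probe with the highest mean over the fetal arrays. The bound for a dim pool took, on each of its arrays, the dimmest signal that still stood well above background, or the probe's signal if that was higher, and averaged the arrays. Standard errors came from limma 3.58.1 in R 4.3.3 (lmFit and eBayes with trend, 4 fetal arrays). The number of arrays limits the precision.

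The comparison and the 66 gene lists (35 of pathways, 31 of cell types) were chosen with earlier results of these data known, so no list is independent support. Named were Btg2, the 15 largest rises and falls among called genes measured on all 4 arrays, the 6 largest bounds each way, the first 2 measured and up to 6 called members of each list, and all members of the globin, sex-linked and BTG/TOB lists. Alternatives covered scaling, background correction, the deposited table, filters on dim probes, probe choice, flags, limma calls at an adjusted p of 0.05, the fold threshold, and leaving out each array. A few genes that this rule names are not reported here.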

Additional observations from a re-analysis of the deposited data

Results flagged for a closer look

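Genes past 2-fold in opposite directions in the fetal and adult comparisons are given here with their differences, knockout minus wild type (log2). Whether the fetal and adult differences differ was not tested, since 1 RNA sample stood for each group. Higher in fetal and lower in adult knockout were 2210417A02Rik (1.75 fetal, -1.505 adult), Csrp3, a muscle LIM protein gene (1.45 and -1.54), and Tnfrsf22 (1.39, and at least 2.47-fold lower in adult). Lower in fetal and higher in adult knockout were Spp1, osteopontin (-1.21 and 1.05), Guca2b, uroguanylin (-1.60, and at least 3.23-fold higher in adult), Prap1, a secreted protein of gut and liver (-1.30, and at least 17.9-fold higher in adult), and Ren2, a renin gene (-1.74, and at least 34.4-fold higher in adult). The kallikreins Klk1b5 (-1.002 and 1.34), Klk1 (at least 2.18-fold lower, measured difference -1.17, and 1.28 in adult) and Klk1b3 (at least 2.40-fold lower, measured difference -1.86, and 1.46 in adult) did the same. The Klk1 genes are near-identical copies, as are Ren2 and Ren1, so their probes may read more than 1 gene. Which renin gene the Ren2 probe read was not tested. Without the second knockout array the fetal calls of 2210417A02Rik, Tnfrsf22 and Klk1b5 were lost, and without the first wild-type array those of Klk1 and Klk1b5. Another Tnfrsf22 probe differed by -0.31 in the fetal pools, and the fetal call was lost when probes were averaged. The fetal call of Klk1b5 was also lost with median scaling, with quantile normalization and in the deposited value table, and that of Klk1 in the deposited value table.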

How the results depend on the processing

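With normexp background correction 31 genes were higher and 37 lower, of which 31 and 36 were among the original calls. Restricting to genes well above background on all 4 arrays left 86 lower. At a 1.5-fold threshold 311 were higher and 402 lower, and at 4-fold 10 and 27. Leaving out 1 array gave 81 to 208 higher and 168 to 250 lower; 49 higher and 117 lower genes were called without any 1 array. Under median, detected-probe and quantile scaling and in the deposited value table, 63 higher and 126 lower genes kept their calls throughout. No called gene turned to the opposite call under any alternative. Heart muscle kept 10 to 14 called members outside the fold thresholds, and 5 to 10 epidermal genes were called. The labels give the arrays no replicate numbers; with arrays paired by slide row as a block in limma, 80 were higher and 166 lower. The offset of 50 used with normexp shrinks differences of dim probes by design. What part it had in the lost calls was not tested. Signal over background limits the comparison: 63 calls rest on a pool that was not well above background.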
